A study of Homo sapiens with 4 samples.

Results

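The Rag GTPases and regulators of mTOR complex 1 (mTORC1) were examined as 10 genes of the 25066 in the deposited expression table of NUDUL1 lymphoma cells: RRAGA, RRAGC, RRAGD, MTOR, RPTOR, RPS6KB1, TSC1, TSC2, SESN1 and SESN3. Of these, 8 were found under the symbols given, MTOR was found by its Entrez identifier, where it is listed as FRAP1, and RPTOR by its older symbol KIAA1303. NUDUL1 is an established human line of diffuse large B cell lymphoma of the germinal center type. All the cells carried doxycycline-inducible Cas9 and a transduced thromboxane receptor, Tbxa2r. The control cells expressed a control sgRNA and the cells labelled GNA13-deficient an sgRNA against GNA13, which encodes the G protein subunit Gα13, with 1 sgRNA per genotype. Both genotypes received the thromboxane A2 analog U46619 at 10 nM for 24 h, so no untreated cells were compared. Each genotype had 2 libraries, with 29209544 and 31537955 mapped reads in the control pair and 30141459 and 29685942 in the pair labelled GNA13-deficient. The labels call these duplicates and do not say that they came from separate cultures, so the p values measure the spread between libraries, which may be technical.

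mTORC1 is a kinase complex on the lysosome that couples amino acids and growth signals to protein synthesis and growth. When amino acids are plentiful, heterodimers of RRAGA or RRAGB with RRAGC or RRAGD recruit the complex to the lysosomal surface, where the GTPase RHEB activates it; the TSC1-TSC2 complex turns RHEB off. Sestrins bind the GATOR2 complex and thereby restrain the Rag GTPases. In germinal center B cells mTORC1 signaling is known for its part in growth after selection.

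GNA13, the targeted gene, had log2 values of 12.46 and 12.45 in control libraries and 13.10 and 13.11 in libraries labelled GNA13-deficient. Its mRNA rose by 0.65 on the log2 scale (SE 0.05, limma adjusted p = 0.00214), which goes against the direction of the label. mRNA does not measure the protein left after Cas9 cutting, so the groups are called the control libraries and the libraries labelled GNA13-deficient. GAPDH, a common reference gene, had a difference of 0.49 (SE 0.13, adjusted p = 0.0502) and passed in every alternative with all 4 libraries except no filter and no variance trend, at adjusted p of 0.00220 to 0.0358. The B cell markers MS4A1, CD79A, CD79B and PAX5 were all detected, with 46105 and 51536 summed reads in control and 40879 and 42142 in libraries labelled GNA13-deficient. The germinal center markers BCL6, MME, CD38 and S1PR2 summed to 24740 and 24620 reads in control and 23971 and 21843 in libraries labelled GNA13-deficient. CD79B, a chain of the B cell receptor, and the surface peptidase MME had the most reads of their lists, without correction for transcript length. BCL6, the master repressor of the germinal center program, fell by 2.49 (SE 0.10, adjusted p = 0.00085). Of these 4 B cell markers 1 passed the test, MS4A1 at -0.57, and of the 4 germinal center markers 1, BCL6, where 29.7% of all genes tested passed. The 9 markers of other cell types summed to 256 and 266 reads in control and 138 and 142 in libraries labelled GNA13-deficient. Of these, LYZ (-2.53), PECAM1 (-3.03) and EPCAM (1.23) passed the test. PECAM1 had the most reads in control (112 and 115) and EPCAM in libraries labelled GNA13-deficient (88 and 97), without correction for transcript length. CD3D, CD3E and HBA1 were at 0 in every library. The part of these 9 markers in the results was not tested. In bulk libraries of a cell line, fewer cells that express a marker and less of its RNA per cell cannot be told apart.

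Promoter sequences are shown for the pair of genes that passed the test, SESN1 and SESN3, and for RRAGC, whose window held a motif. They are 300 bases from RefSeq on GRCh38.p14, lying mostly before the annotated start, read 5′ to 3′ in the direction of the gene, all on the minus strand, at chr6:109094797-109095096, chr11:95232426-95232725 and chr1:38859723-38860022. Capitals mark the E-box CACGTG, the core bound by MiT/TFE and MYC family factors.
SESN1: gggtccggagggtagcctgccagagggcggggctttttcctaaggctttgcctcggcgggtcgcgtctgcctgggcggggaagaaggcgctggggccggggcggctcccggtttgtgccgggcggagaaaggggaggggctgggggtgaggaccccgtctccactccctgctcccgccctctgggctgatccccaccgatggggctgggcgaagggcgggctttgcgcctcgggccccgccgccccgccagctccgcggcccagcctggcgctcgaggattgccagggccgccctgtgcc
SESN3: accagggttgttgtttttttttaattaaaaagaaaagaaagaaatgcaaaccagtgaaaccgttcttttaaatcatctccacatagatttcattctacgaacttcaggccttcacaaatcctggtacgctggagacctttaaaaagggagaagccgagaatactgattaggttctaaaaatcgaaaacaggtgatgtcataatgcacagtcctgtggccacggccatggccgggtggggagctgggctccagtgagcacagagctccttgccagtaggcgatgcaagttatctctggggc
RRAGC: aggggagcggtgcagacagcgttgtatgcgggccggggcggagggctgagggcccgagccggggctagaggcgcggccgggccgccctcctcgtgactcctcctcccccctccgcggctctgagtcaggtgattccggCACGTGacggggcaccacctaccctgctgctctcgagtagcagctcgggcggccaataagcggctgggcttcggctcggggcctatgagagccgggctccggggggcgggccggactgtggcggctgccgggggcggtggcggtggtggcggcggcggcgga

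Of the 10 genes, 8 had such a window, with 11 windows in all, 3 of them for SESN1. The FOXO core GTAAACA, searched on both strands because FOXO factors are known regulators of sestrins, was in 0 of the 11 windows and in 3.42% of 35116 windows over all genes. The E-box, a palindrome that reads the same on both strands, was in 2 of the 11 windows, that of RRAGC and 1 of the 2 of TSC2, and in 7.26% of all windows. A match describes these letters in this window only, and no match says nothing of the factor.

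Fitted across all 16945 genes tested, 2 of the 10 genes passed an adjusted p of 0.05, SESN1 and SESN3, and both fell. The background was a call in 29.7% of all genes tested, 16.6% lower and 13.1% higher. Values did not overlap between the genotypes for 6 of the 10 genes, 5 lower and 1 higher, against 65.3% of all genes tested (34.0% lower, 31.3% higher). With the replicate number as a block, RPTOR and TSC1 of the 10 genes passed too, so that 4 of the 10 genes were called against a background of 39.0%; no source pairs the libraries. The 10 genes had a median log2 difference of -0.11, the libraries labelled GNA13-deficient minus control, and all genes tested one of -0.02; with each library centred on its median these were 0.0945 and 0.18.

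**Figure D1:**
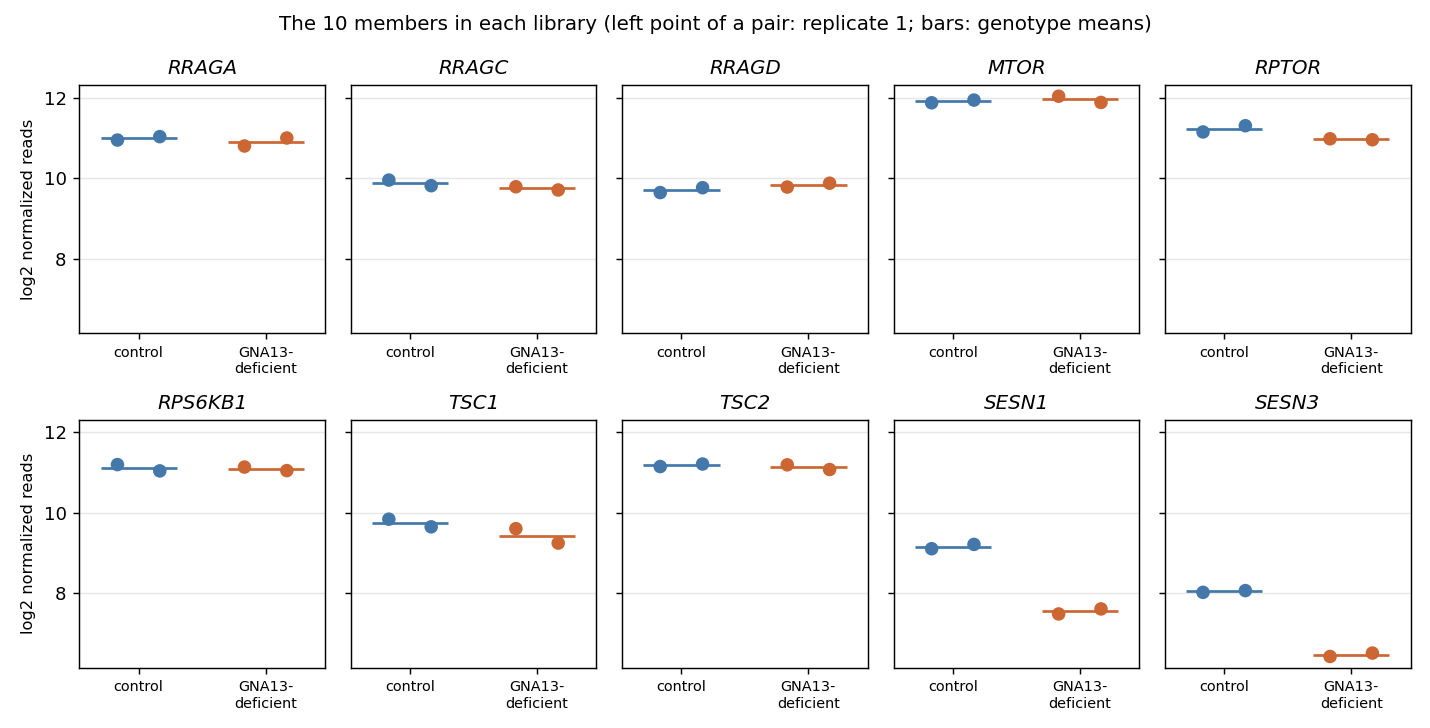
Deposited log2 values (vertical axis) of the 10 genes in each of the 4 libraries, with control libraries and libraries labelled GNA13-deficient as separate points. SESN1 and SESN3 sit lower in both libraries labelled GNA13-deficient than in both control libraries, and the other 8 genes differ by 0.32 or less.

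SESN1, a leucine-responsive inhibitor of mTORC1 that FOXO factors can induce, lies on the minus strand of chromosome 6 from 109305512 to 109416049 (GRCh37). It had 543 and 605 recovered reads in control and 175 and 182 in libraries labelled GNA13-deficient, which are log2 values of 9.11 and 9.22 against 7.49 and 7.61. Both control libraries were above both others, and the replicates lay 0.11 and 0.13 apart. SESN1 fell by 1.61 (SE 0.10, 95% interval -1.88 to -1.34, adjusted p = 0.00158), a level 3.06-fold higher in control. Of all genes tested, 1139 (6.72%) fell at least as far. Median centring of each library moved the median of all genes from -0.02 to 0.18, and SESN1 remained lower by that scaling, at -1.41.

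SESN3, another sestrin and a known FOXO target, lies on the minus strand of chromosome 11 from 94898677 to 94965705, as all gene positions here on GRCh37. It had 256 and 273 reads in control and 84 and 85 in libraries labelled GNA13-deficient, on the log2 scale 8.03 and 8.07 against 6.43 and 6.52. The replicates of each genotype were close together and the genotypes were far apart. SESN3 fell by 1.57 (SE 0.14, 95% interval -1.93 to -1.22, adjusted p = 0.00258), a level 2.98-fold higher in control, and 1194 genes (7.05%) fell at least as far. The log2 ratio of SESN1 to SESN3 within a library was 1.09 and 1.15 in control and 1.06 and 1.10 in libraries labelled GNA13-deficient, a difference of -0.04 (pooled SD 0.04, exact permutation p = 0.667, smallest possible 0.333). With any 1 library left out, SESN1 was at -1.68 to -1.55 and SESN3 at -1.62 to -1.53, and neither passed the test, nor did any other gene (limma), although 5257 to 5600 genes had an unadjusted p under 0.05. Antisense exons are annotated over exons of 6 of the 10 genes (SESN1, SESN3, MTOR, RPTOR, TSC1 and TSC2) and exons of another gene on the same strand over 3 (RRAGC, RPTOR and RPS6KB1); the strand setting of the counting is not given in the sources used here, so reads of such overlaps cannot be told apart.

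SESN2, the third family member and not among the 10 genes, had 575 and 555 reads in control and 711 and 673 in libraries labelled GNA13-deficient. SESN2, the sestrin known to be induced by ATF4 under stress, rose by 0.36 (SE 0.07, adjusted p = 0.0231), the opposite direction to SESN1 and SESN3. Its call was lost without a filter on low values (adjusted p = 0.0630) and without a variance trend (adjusted p = 0.0762). In RPKM computed here, the recovered reads per transcript length and library depth, SESN2 averaged 5.38 in control and 6.68 in libraries labelled GNA13-deficient, SESN1 3.33 and 1.05. By the same measure SESN2 made up 55.9% of summed sestrin signal in control and 83.2% in libraries labelled GNA13-deficient, SESN1 34.7% and 13.1%, and SESN3 9.46% and 3.68%. The summed level of the 3 sestrins was 9.89 and 9.38 RPKM in control and 8.13 and 7.93 in libraries labelled GNA13-deficient. These shares depend on the transcript lengths used.

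**Figure D2:**
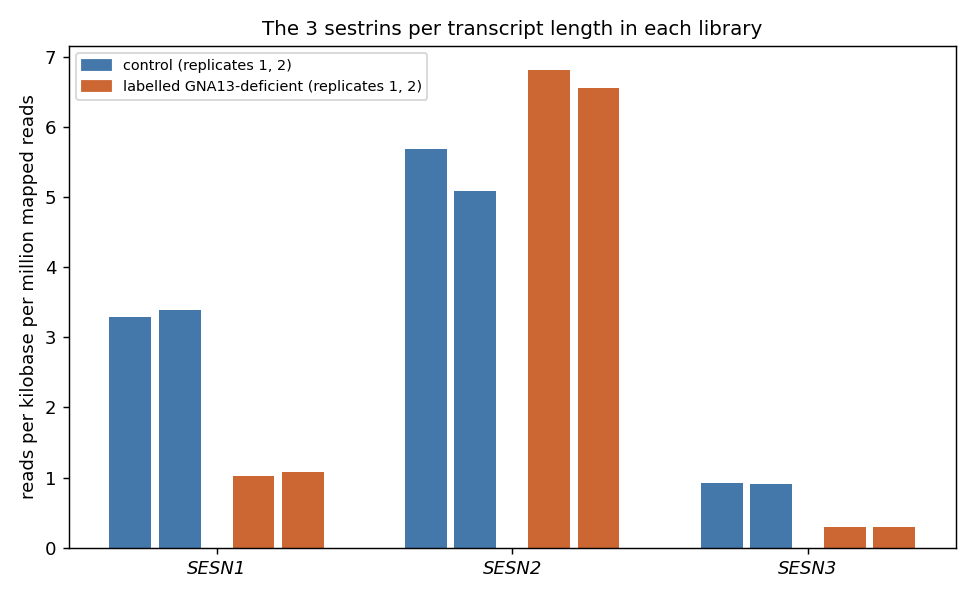
RPKM (vertical axis) of SESN1, SESN2 and SESN3 in each of the 4 libraries. SESN2 is the highest of the 3 in every library, and its mean goes from 5.38 in control to 6.68 in libraries labelled GNA13-deficient while SESN1 goes from 3.33 to 1.05.

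Among the Rag GTPases, RRAGA, the RagA subunit, a gene of 1 exon at chr9:19049425-19051023 on the plus strand, had 1941 and 2130 reads in control and 1737 and 1902 in libraries labelled GNA13-deficient, with overlapping values. Its log2 difference was -0.09 (SE 0.09, 95% interval -0.31 to 0.13, adjusted p = 0.476), and 0.12 with each library centred on its median. RRAGC, the RagC subunit (chr1:39303870-39325444, minus strand), had 974 and 914 reads in control and 861 and 777 in libraries labelled GNA13-deficient. It was lower in both without overlap, by a log2 difference of -0.14 that did not pass the test (SE 0.08, adjusted p = 0.265) and was 0.07 under median centring. RRAGD, the RagD subunit and a known MiT/TFE target (chr6:90074335-90121992, minus strand), had 785 and 883 reads in control and 856 and 873 in libraries labelled GNA13-deficient, with a log2 difference of 0.12 (SE 0.08, 95% interval -0.08 to 0.33, adjusted p = 0.299). Its log2 values were higher in both libraries labelled GNA13-deficient, 9.78 and 9.88 against 9.64 and 9.76. Under median centring RRAGD passed the test at 0.33 (adjusted p = 0.0460). In that setting the median of all genes tested was itself 0.18, and 69.1% of all calls were higher.

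The paralogue RRAGB, outside the 10 genes, had 253 and 190 reads in control and 142 and 130 in libraries labelled GNA13-deficient, with a log2 difference of -0.62 (SE 0.19, adjusted p = 0.0714). RRAGB was at -0.39 without control replicate 1 and at -0.33 with quantile normalization, and it passed the test with voom on recovered reads (adjusted p = 0.0457) and with the replicate block (adjusted p = 0.0343). Within a library, the log2 ratio of RRAGC to RRAGD was 0.31 and 0.05 in control and 0.01 and -0.17 in libraries labelled GNA13-deficient, a difference of -0.26 (pooled SD 0.16, exact permutation p = 0.333, the smallest possible). Per length, RRAGA made up 92.1% of RRAGA plus RRAGB in control and 94.5% in libraries labelled GNA13-deficient, and RRAGC 67.5% and 63.5% of RRAGC plus RRAGD. RRAGA was the most abundant Rag GTPase per length, at 41.9 RPKM in control and 38.1 in libraries labelled GNA13-deficient.

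MTOR, the kinase itself (chr1:11166592-11322613, minus strand), had 3691 and 3999 reads in control and 4098 and 3511 in libraries labelled GNA13-deficient, with overlapping values. Its log2 difference was 0.05 (SE 0.07, 95% interval -0.14 to 0.24, adjusted p = 0.636), and -0.0065 with quantile normalization. With median centring it was 0.26 and passed the test (adjusted p = 0.0472), where the median of all genes tested was itself 0.18. RPTOR, the subunit that binds substrates (chr17:78518619-78940171, plus strand), had 2232 and 2570 reads in control and 1967 and 1845 in libraries labelled GNA13-deficient. It was lower in both without overlap, at a log2 difference of -0.26 (SE 0.07, 95% interval -0.44 to -0.08), and its adjusted p of 0.0502 lay at the threshold. Over the alternatives with all 4 libraries, the adjusted p of RPTOR ran from 0.0193 with a filter at the median level to 0.662 with median centring, where its difference was -0.05. RPTOR passed with that filter, pseudocounts of 1 and 10, quantile normalization, a robust prior, voom on recovered reads and the replicate block. It did not pass with median centring, without a filter or without a variance trend.

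RPS6KB1, the S6 kinase that mTORC1 phosphorylates (chr17:57970407-58027935, plus strand), had 2315 and 2147 reads in control and 2199 and 1974 in libraries labelled GNA13-deficient. The genotypes overlapped, with a log2 difference of -0.03 (SE 0.08, adjusted p = 0.830) that was 0.18 under median centring. TSC1, the stabilizing subunit of the complex that turns RHEB off (chr9:135766735-135822261, minus strand), had 903 and 819 reads in control and 761 and 566 in libraries labelled GNA13-deficient. TSC1 was lower in both without overlap, at -0.32 (SE 0.14, 95% interval -0.69 to 0.05, adjusted p = 0.167), with its replicates 0.19 and 0.36 apart on the log2 scale. Under median centring TSC1 was at -0.11. TSC2, the GTPase-activating subunit (chr16:2097968-2139492, plus strand), had 2238 and 2418 reads in control and 2286 and 2011 in libraries labelled GNA13-deficient, and a log2 difference of -0.05 (SE 0.07, adjusted p = 0.634) that was 0.16 under median centring. RHEB, the partner these subunits act on, had log2 values of 10.59 and 10.76 in control and 10.87 and 11.05 in libraries labelled GNA13-deficient, a difference of 0.29 (SE 0.09, adjusted p = 0.0778). RHEB passed with median centring, at 0.49 (adjusted p = 0.0263), with a filter at the median level (adjusted p = 0.0227) and with the replicate block (adjusted p = 0.00807). The median of all genes tested was 0.18 with median centring.

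**Figure D3:**
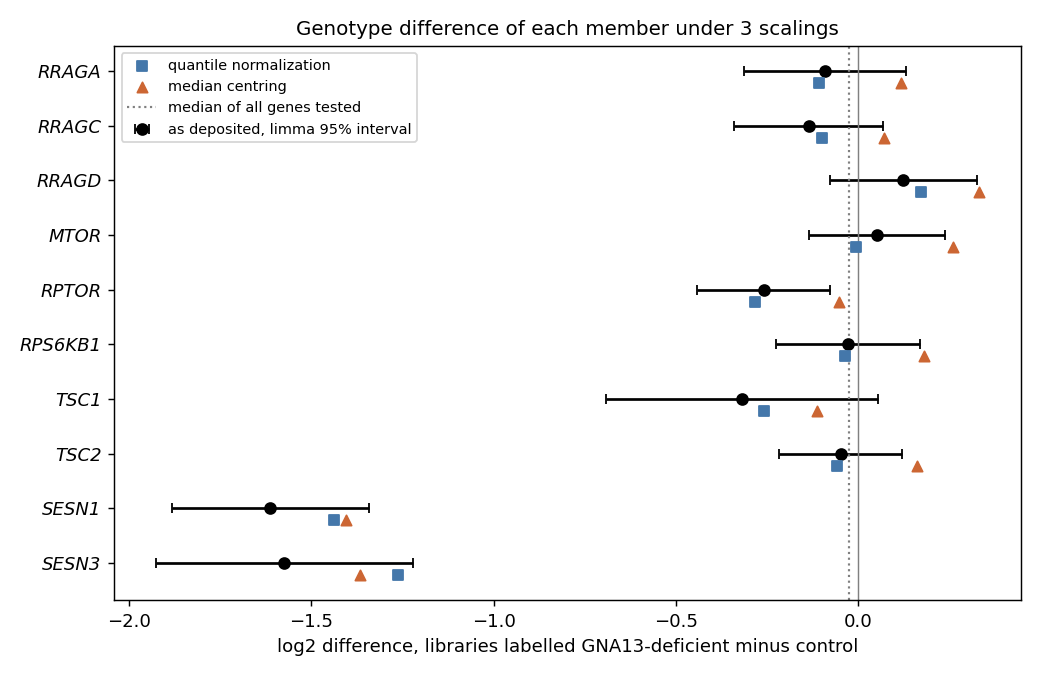
Log2 difference of each of the 10 genes (horizontal axis, libraries labelled GNA13-deficient minus control) with its 95% interval from limma. The intervals of SESN1 (-1.88 to -1.34) and SESN3 (-1.93 to -1.22) lie far from 0, that of RPTOR ends at -0.08, and those of the other 7 genes include 0.

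Of 68 other genes of the pathway, 63 were tested, of which 15 rose and 7 fell (34.9% called against the background of 29.7%), with a median log2 difference of 0.0035. Upstream of the Rag GTPases, 1 of 5 Ragulator genes tested rose, LAMTOR2, a subunit of the lysosomal anchor, by 0.38 (SE 0.07, adjusted p = 0.0170). Of the 7 genes of GATOR1, which turns RagA and RagB off, and of KICSTOR, which tethers it, 2 rose, NPRL2 by 0.47 (SE 0.10) and NPRL3 by 0.41 (SE 0.06). In GATOR2, which opposes GATOR1, SEH1L rose by 0.36 (SE 0.05) and WDR59 fell by 0.29 (SE 0.07) among 5 genes. The call of WDR59 was lost with median centring, at -0.0775 (adjusted p = 0.409), and with quantile normalization (adjusted p = 0.0570). Without a variance trend, LAMTOR2, NPRL2, NPRL3, SEH1L and WDR59 lost their calls, and without a filter LAMTOR2, NPRL2 and WDR59 did. Among 7 genes tested of the list of amino acid sensors, 3 fell (SESN1, SESN3 and BMT2) and SESN2 rose. BMT2, the S-adenosylmethionine sensor, fell by 0.89 (SE 0.10, adjusted p = 0.00479). BMT2 had 425 and 420 reads in control and 213 and 220 in libraries labelled GNA13-deficient. In the folliculin complex, which acts on RagC and RagD, FLCN (0.17), FNIP1 (-0.06) and FNIP2 (0.26) did not pass the test, with adjusted p of 0.325, 0.762 and 0.581 and each with an unadjusted p above the threshold as well; they are given outside the rule for named genes.

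TFE3, an MiT/TFE transcription factor that mTORC1 keeps in the cytoplasm, had 208 and 226 reads in control and 16 and 27 in libraries labelled GNA13-deficient. TFE3 fell by 3.31 (SE 0.33, adjusted p = 0.00352), a level 9.94-fold higher in control, while its relatives MITF and TFEB rose by 1.13 (SE 0.26) and 0.38 (SE 0.07). MITF rested on 50 and 40 reads in control and 108 and 80 in libraries labelled GNA13-deficient. All 3 MiT/TFE genes tested passed the test, in both directions and against 29.7% of all genes, but without a filter on low values none of them did, with adjusted p of 0.0563 for TFE3, 0.137 for MITF and 0.0519 for TFEB. Of the 5 genes of the TSC complex and RHEB list, RHEBL1, the RHEB-like GTPase, rose by 1.19 (SE 0.21, adjusted p = 0.0159), from 56 and 64 reads to 118 and 144. In the mTORC1 core list, which includes MTOR and RPTOR, 3 of 8 genes rose, TTI2 by 0.62 (SE 0.08), TTI1 by 0.50 (SE 0.06) and TELO2 by 0.24 (SE 0.06), all of the chaperone complex that helps assemble mTOR. The call of TELO2 was lost with quantile normalization, at 0.22 (adjusted p = 0.0529).

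DDIT4, known as REDD1 and an activator of the TSC complex under stress, had 337 and 339 reads in control and 503 and 522 in libraries labelled GNA13-deficient, and rose by 0.67 (SE 0.09, adjusted p = 0.00728). Of 8 genes of AMPK and LKB1 tested, the energy-sensing kinases that restrain mTORC1, PRKAG2, a regulatory subunit, rose by 1.03 (SE 0.24). Of 4 mTORC2 subunits tested, PRR5L fell by 2.25 (SE 0.47) at 16 and 31 reads in control and 4 and 5 in libraries labelled GNA13-deficient, and by 1.15 with a pseudocount of 10. Among 13 substrates and outputs, RPS6KB1 included, 2 rose and 3 fell, 38.5% called against 29.7% of all genes tested. The shares called were 12.5% for the AMPK and LKB1 genes and 25.0% for the mTORC2 subunits. EIF4EBP1, the translation repressor that mTORC1 inactivates, rose by 0.71 (SE 0.11, adjusted p = 0.0111), from 881 and 960 reads to 1328 and 1552. ATG13 and ULK1, of the kinase complex that starts autophagy, fell by 0.70 (SE 0.05) and 0.69 (SE 0.08), with 2648 and 2662 reads of ATG13 in control and 1622 and 1503 in libraries labelled GNA13-deficient. The S6 kinase paralogue RPS6KB2 had a difference of 0.17 (SE 0.09, adjusted p = 0.233), 0.0775 to 0.26 with 1 library left out, and it passed with the replicate block (adjusted p = 0.0309). Calls were lost both without a filter and without a variance trend for SESN2, LAMTOR2, NPRL2, WDR59, MITF, TFEB, TELO2, PRKAG2, PRR5L, EIF4EBP1 and FOXO3. They were lost without a filter alone for RHEBL1 and TFE3, and without a variance trend alone for NPRL3 and SEH1L.

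Of 4 known regulators of sestrin genes, FOXO3 fell by 0.57 (SE 0.12, adjusted p = 0.0235) and FOXO4 by 0.59 (SE 0.10, adjusted p = 0.0149). That is 2 of 4 genes called, both lower, where 29.7% of all genes tested were called and 16.6% were called lower. With median centring FOXO3 was at -0.36 and no longer passed (adjusted p = 0.0795), while FOXO4 passed at -0.38 (adjusted p = 0.0438). FOXO1 (-0.04) and ATF4 (0.24) did not pass the test, with adjusted p of 0.702 and 0.0709. These values are set beside those of SESN1 and SESN3, and their part in the fall of the sestrins was not tested.

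**Figure D4:**
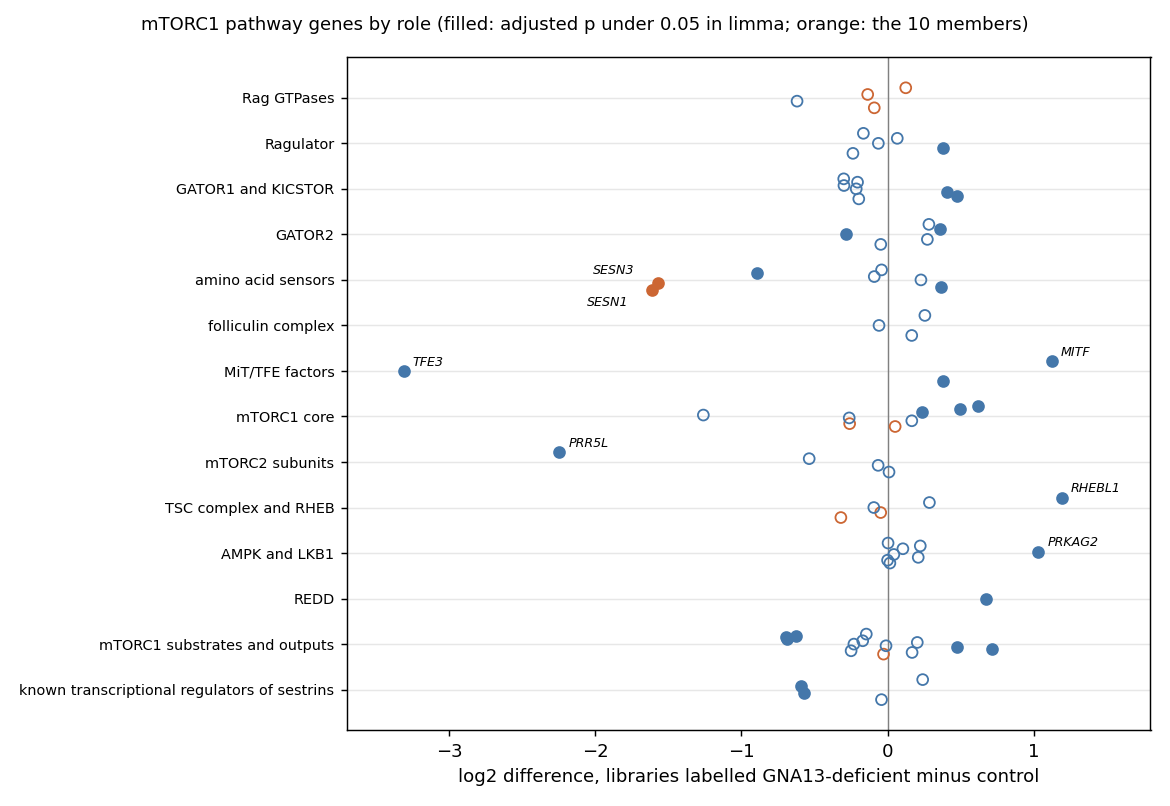
Log2 difference (horizontal axis, libraries labelled GNA13-deficient minus control) of each gene tested in the mTORC1 pathway, by role (vertical axis), with filled points for an adjusted p under 0.05 and the 10 genes in orange. SESN1 and SESN3 lie at the low end of the amino acid sensors, TFE3 at -3.31 is the lowest point of all, and RHEBL1 at 1.19 the highest.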

How the data were processed

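The authors sequenced poly(A) RNA of NUDUL1 cells with a stranded kit, aligned the reads with STAR to the hg19 build, and deposited a table of normalized log2 values per gene with a row of total mapped reads. HTSeq is named in the submitters' processing notes. The normalization and the strand setting of the counting are not given in the sources used here. No further scaling was applied to the deposited log2 values.

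Low values stepped in whole reads (100% within 0.2 of a whole number in each library), so the reads behind each value were recovered. A level of 3 reads lay at log2 values of 1.56 to 1.69 and was not used as a filter. Genes at 1 read numbered 1269 in control replicate 1, and 1270 and 1314 in libraries labelled GNA13-deficient. In control replicate 2 the log2 value of 1 read was -0.02 and 0 genes were listed at 1 read. No gene at 1 read counted as above 0 in that library. Genes above 0 in 2 or more of the 4 libraries entered a linear model in limma 3.58.1 in R 4.3.3 (lmFit, eBayes, variance trend on) with a single term for genotype, 2 residual degrees of freedom, and Benjamini-Hochberg adjustment over all genes tested at a threshold of 0.05, two-sided. Ratios within a library were compared by an exact permutation test, two-sided. RPKM used the longest protein-coding transcript per gene in GENCODE for GRCh37. The fit was tested on simulated data, but no result of that check is given here.

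The genes and the pathway lists were chosen with earlier results of these data known. Named genes were the 10 genes, GNA13, the paralogues and RHEB, up to 3 genes per list with the largest difference among those that passed, and cell type markers; some genes of these lists are not reported here. ATF4, FOXO1, FLCN, FNIP1 and FNIP2 were named after their values were seen. Alternatives were a filter at the median, no filter, pseudocounts of 1 and 10, quantile normalization, median centring, no variance trend, a robust prior, voom on recovered reads, a replicate block, and leaving out each library.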

Additional observations from a re-analysis of the deposited data

How the results depend on the processing

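SESN1 and SESN3 stayed lower under every alternative run, and passed the threshold in each one with all 4 libraries except that SESN3 was not tested with the filter at the median. With any 1 library left out, SESN1 ranged from -1.68 to -1.55 and SESN3 from -1.62 to -1.53 at adjusted p of 0.0708 to 0.0790 for SESN1, and limma called 0 of all genes, 0 of the 10 genes and 0 of the pathway genes, against 5257 to 5600 genes at an unadjusted p under 0.05; 1 residual degree of freedom was then left. Among all genes, 5037 were called (44% higher), 1999 without a filter, 2718 without a variance trend and 6235 with median centring (69.1% higher). Of the pathway lists 24 genes were called, 12 without a filter and 11 without a variance trend. Median centring called 4 of the 10 genes, with RRAGD at 0.33 and MTOR at 0.26 added, and turned RRAGA to 0.12, RRAGC to 0.072, TSC2 to 0.16 and RPS6KB1 to 0.18. Quantile normalization turned MTOR to -0.0065 and moved the difference between genotypes in the log2 ratio of RRAGA to RRAGB from 0.53 to 0.22 and in that of SESN1 to SESN3 from -0.04 to -0.17, which a pseudocount of 10 moved to -0.089. Leaving out 1 library gave RRAGA -0.19 to 0.0085, MTOR -0.0255 to 0.13, TSC2 -0.11 to 0.0115 and RPS6KB1 -0.11 to 0.051; the range was -0.50 to -0.14 for TSC1, -0.21 to -0.07 for RRAGC, 0.06 to 0.19 for RRAGD, and, for the difference between genotypes in a log2 ratio, -0.39 to -0.13 for RRAGC to RRAGD, 0.255 to 0.80 for RRAGA to RRAGB and -0.07 to -0.007 for SESN1 to SESN3. By its construction, median centring shifted the log2 difference of every gene by the same amount. The median of all genes tested went with it, from -0.02 to 0.18. The cause of the other changes was not tested.

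No source pairs same-numbered libraries, whose deviations correlated at 0.453 over 8473 genes, a check that rests on 2 pairs. With the replicate number as a block, limma called 6616 genes, 4 of the 10 genes (RPTOR and TSC1 added, adjusted p = 0.0250 and 0.0236) and 40 pathway genes. The call of PRR5L rested on few reads, 4 and 5 in the libraries labelled GNA13-deficient.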
